A study of Homo sapiens with 2 samples.

Results

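The miR-548 family was described in HepG2 cells, a human hepatocellular carcinoma line, on Agilent human miRNA arrays. Its members were taken by name, as every non-control entry of the array whose name begins with hsa-miR-548, which gave 70 of the 2549 human miRNAs and 173 of the 5893 probes. Cells received either Ad-NC, the control adenoviral vector, or Ad-uc.372, an adenoviral vector named for the ultraconserved transcript uc.372, each for 48 h. The sample labels name the vector without saying whether it raises or lowers the transcript, and overexpression was taken from the title of the series and the text of the study. One plot in the study's supplement bears the inhibitor suffix on its axes, so the direction in which the transcript was changed is not fully settled, and differences are given by vector name. Each condition had 1 array, and both arrays share a slide and a scan, so no difference has a replicate check, no test across samples was possible and no p-value is given. The SD printed is the spread of a probe's spots, a technical error only. A fall of a miRNA in RNA from a whole culture cannot be told apart from fewer cells that carry it.

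miRNAs are short RNAs cut from hairpin precursors, with a mature strand from the 5′ side (5p) or the 3′ side (3p) of the hairpin, and the seed, bases 2 to 8, does most of the pairing with target mRNAs. The miR-548 hairpins are a primate family whose many copies derive from MADE1, a short transposable element that is close to palindromic, so that its transcript folds on itself. The copies lie scattered over the genome, often inside other genes, and are usually reported at low levels.

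RefSeq mature sequences were found for 49 of the 70 members, from 48 hairpins on 21 chromosomes of GRCh38.p14. Of these hairpins, 32 (66.7%) lay within the span of a protein-coding gene. The 49 sequences carried 28 different seeds, of which 8 were shared by several members and 20 belonged to 1 member each, so the family name covers many seeds. The sequences that the results turn on follow, 5′ to 3′, with the seed in capitals. The first 4 are members that the image software called detected, all of them 3p arms.
miR-548c-3p: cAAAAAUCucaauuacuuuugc
miR-548ae-3p: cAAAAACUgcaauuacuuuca
miR-548aj-3p: uAAAAACUgcaauuacuuuua
miR-548x-3p: uAAAAACUgcaauuacuuuc
Another pair has the same seed as miR-548ae-3p, miR-548aj-3p and miR-548x-3p and was not detected.
miR-548am-3p: cAAAAACUgcaguuacuuuugu
miR-548j-3p: cAAAAACUgcauuacuuuugc
The next 3 hold the same 10 bases, CAAUUACUUU, as the 4 detected members above, and were not detected either. miR-603 is a hairpin of another name from the same transposable element.
miR-548ac: cAAAAACCggcaauuacuuuug
miR-548u: cAAAGACUgcaauuacuuuugcg
miR-603: cACACACUgcaauuacuuuugc
miR-548b-5p stands for the most common seed of the family, held by 11 members, all 5p arms, and miR-559 has the same seed under another name.
miR-548b-5p: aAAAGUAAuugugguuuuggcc
miR-559: uAAAGUAAauaugcaccaaaa
The last 3 are among the brightest of the members that were not detected.
miR-548f-3p: aAAAACUGuaauuacuuuu
miR-548ai: aAAGGUAAuugcaguuuuuccc
miR-548m: cAAAGGUAuuugugguuuuug

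Hardly any member of the family was above background. The few that were numbered fewer with Ad-uc.372 than with Ad-NC, by counts too small, on 1 array each, to give the family a direction. A probe counted as well above background if at least 50% of its spots carried the software's flag of that name. The limit on each array, the dimmest flagged spot, was 21.1 (Ad-NC) and 17.3 (Ad-uc.372) in arbitrary units of brightness after background subtraction. By this measure 2 of 70 members (2.86%), miR-548c-3p and miR-548ap-3p, were well above background with Ad-NC, against 9.26% of all miRNAs on the array. With Ad-uc.372 it was 1 of 70 (1.43%), miR-548c-3p, against 10.2% of all. Among the 2479 other miRNAs the count was 234 with Ad-NC and 259 with Ad-uc.372, the array with the lower limit. Whether the limit bears on these counts was not tested. The software's own flag for a whole miRNA was less strict and called 5 members detected with Ad-NC (7.14%), against 11.6% of all miRNAs. With Ad-uc.372 it called 2 members (2.86%), against 12.5% of all. These 5 were miR-548c-3p and miR-548ap-3p, called on both arrays, and miR-548ae-3p, miR-548aj-3p and miR-548x-3p, called with Ad-NC only. All 5 are 3p arms, so 5 of the 29 members of that arm were called with Ad-NC and 0 of the 36 members of the 5p arm. Shares by arm were not counted for other miRNAs, so whether this split is particular to the family was not tested. A further 5 members without a suffix or a sequence have no arm assigned.

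**Figure D1:**
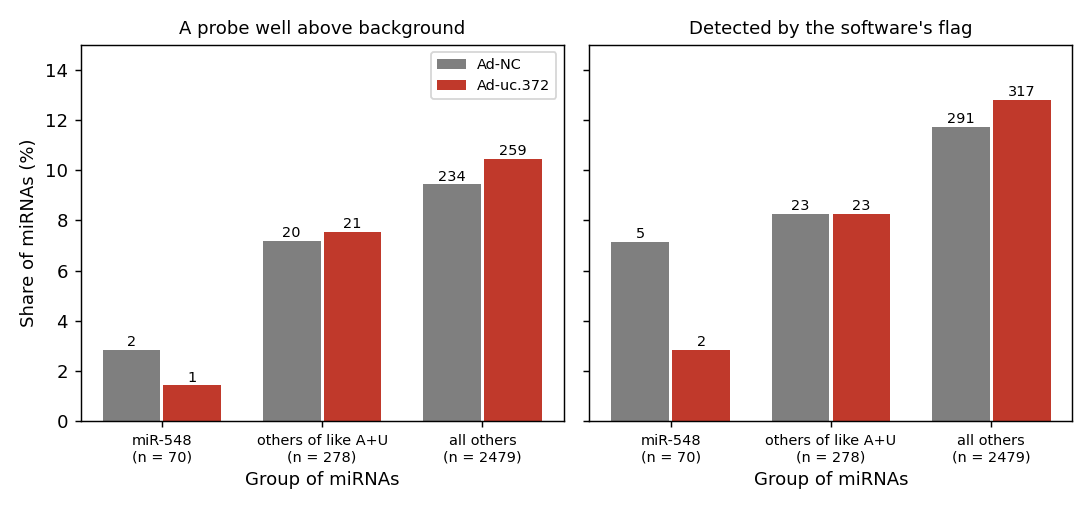
Share of miRNAs (%) with a probe well above background (left) and called detected by the image software (right), with the number of miRNAs above each bar, for the 70 miR-548 members, the 278 other miRNAs of like A+U content and all 2479 others. Bars for miR-548 are the lowest in both panels and are lower with Ad-uc.372 (red) than with Ad-NC (grey), and 1 array stands behind each colour.

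The 70 members had 1367 usable spots with Ad-NC and 1358 with Ad-uc.372, after 33 and 42 outlier spots were left out, and no member spot was saturated. Of these spots, 1.10% were flagged well above background with Ad-NC and 0.368% with Ad-uc.372, against 7.65% and 8.48% of all spots on the arrays. Most members, 46, had 2 probes, 12 had 3, 11 had 4, and miR-548f-3p had 1. No probe served more than 1 member. Probe sequences were not used here, and whether RNA of 1 member lit the probe of another was not tested.

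miR-548c-3p, whose mature sequence lies at chr12:64622569-64622590 on the plus strand (GRCh38.p14), within the span of RASSF3, a gene of the Ras association domain family, was the only member measured on both arrays. Its signal was 32.2 ± 12.1 with Ad-NC (SD, 5 spots, lowest 12.8, median 39.9, highest 40.8) and 14.6 ± 5.33 with Ad-uc.372 (SD, 5 spots, lowest 6.87, median 18.2, highest 18.7). The spots of the arrays overlapped, since 3 of the 5 spots with Ad-uc.372 were above the lowest spot with Ad-NC. After spots under the limit were raised to it (1 with Ad-NC and 2 with Ad-uc.372) and each array was scaled to its own 75th percentile (taken over probes that were well above background on both), the log2 difference, Ad-uc.372 minus Ad-NC, was -1.10, with a combined spot SD of 0.43. This corresponds to 2.15-fold lower with Ad-uc.372, where the probe's mean of 14.6 lay under the limit of 17.3, so neither the fold nor its place among other miRNAs is exact. The 229 miRNAs measured on both arrays had differences with the median -0.17 and the SD 0.29. Past 1.5-fold lower were 6 of the 229 (2.62%), miR-548c-3p among them. The value came from 1 of the 4 probes of miR-548c-3p. It was -0.45 with normexp background correction, under 1.5-fold, and with every spot required to be flagged, or with 1 common limit for both arrays, miR-548c-3p was not measured on both.

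miR-548ap-3p passed the limit with Ad-NC and not with Ad-uc.372. Its signal was 28.3 ± 2.83 with Ad-NC (SD, 5 spots, lowest 25.7, median 28.0, highest 32.7) and 11.6 ± 2.05 with Ad-uc.372 (SD, 5 spots, lowest 9.78, median 11.5, highest 14.8). All 5 spots with Ad-NC were flagged and 0 of the 5 with Ad-uc.372, and the spots did not overlap, a trait that was not counted for other probes. Its level was put at 1.84-fold lower or more with Ad-uc.372, where the probe itself was not well above background. This bound was set by the lowest level of any probe well above background on that array. That probe was the bright probe of miR-548c-3p, whose mean of 14.6 lay under the limit of 17.3. The bound is thus not firm, and it depends on the value of miR-548c-3p. Across the array, 7 miRNAs passed with Ad-NC only and 31 with Ad-uc.372 only. Of these 38, only the 7 seen with Ad-NC alone could have a bound lower with Ad-uc.372. All 7 (18.4% of the 38) were past 1.5-fold, so passing it did not set miR-548ap-3p apart. The bound of miR-548ap-3p was under 1.5-fold with normexp (1.37), with 1 common limit (1.41) and with scaling to the 75th percentile of all probes (1.32).

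miR-548ae-3p, miR-548aj-3p and miR-548x-3p, the members with seed AAAAACU that the software called detected with Ad-NC, stayed under that measure on both arrays, so they are given as signals before scaling and with no fold. miR-548ae-3p, with copies at chr2:184379017-184379037 and chr5:58530047-58530067, had 17.9 ± 4.39 with Ad-NC (SD, 7 spots, lowest 11.5, median 17.7, highest 24.0) and 8.05 ± 5.48 with Ad-uc.372 (SD, 7 spots, lowest 4.11, median 6.54, highest 19.9). Its spots overlapped through 1 bright spot with Ad-uc.372. miR-548aj-3p, with copies at chr6:132115199-132115219 and, within the span of SYTL5, at chrX:38023912-38023932, had 16.2 ± 5.0 with Ad-NC (SD, 5 spots, lowest 11.6, median 14.8, highest 23.5) and 5.63 ± 3.87 with Ad-uc.372 (SD, 5 spots, lowest 0.395, median 4.91, highest 9.81). miR-548x-3p, with copies at chr13:65966352-65966371 and chr21:18686100-18686119, had 17.1 ± 3.80 with Ad-NC (SD, 7 spots, lowest 13.0, median 16.3, highest 24.8) and 3.44 ± 4.73 with Ad-uc.372 (SD, 7 spots, lowest -2.83, median 2.99, highest 12.0). For miR-548aj-3p and miR-548x-3p every spot with Ad-NC lay above every spot with Ad-uc.372. Both, like miR-548ap-3p, passed a limit with Ad-NC only, so separation in this direction is partly fixed by how they came to be named. How often spots of other probes separate was not counted. Each of these 3 members has more than 1 genomic copy of the same mature sequence, and the array cannot say which copy the RNA came from.

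**Figure D2:**
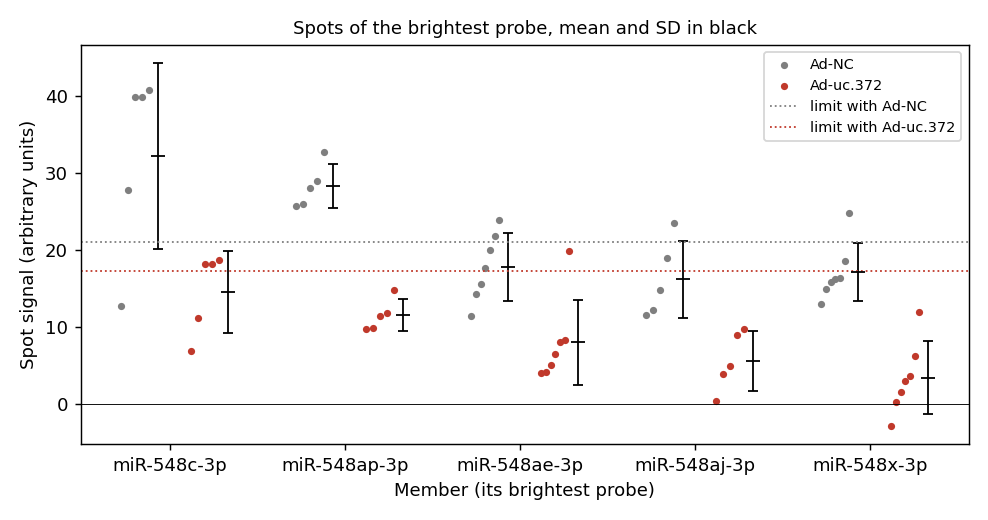
Signal of each spot (arbitrary units) of the brightest probe of the 5 detected members, with Ad-NC in grey and Ad-uc.372 in red, mean and SD between spots in black, and the dimmest signal flagged well above background on each array as dotted lines. The spots of miR-548ap-3p, miR-548aj-3p and miR-548x-3p do not overlap between the arrays, and those of miR-548c-3p and miR-548ae-3p do. Overlap was not counted for other probes.

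In each of the 5 detected members a single probe carried the signal. Their other 13 probes had means from -4.56 to 3.16 with Ad-NC and from -1.79 to 2.33 with Ad-uc.372, where values under 0 come from background subtraction, and 0 of their spots was flagged on either array. The same form was found in 16 of the 39 other detected miRNAs with 3 or more probes (41.0%), which had flagged spots on 1 probe only. It held for 5 of 5 detected members. The groups were not matched for brightness, and whether the difference goes with brightness was not tested.

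**Figure D3:**
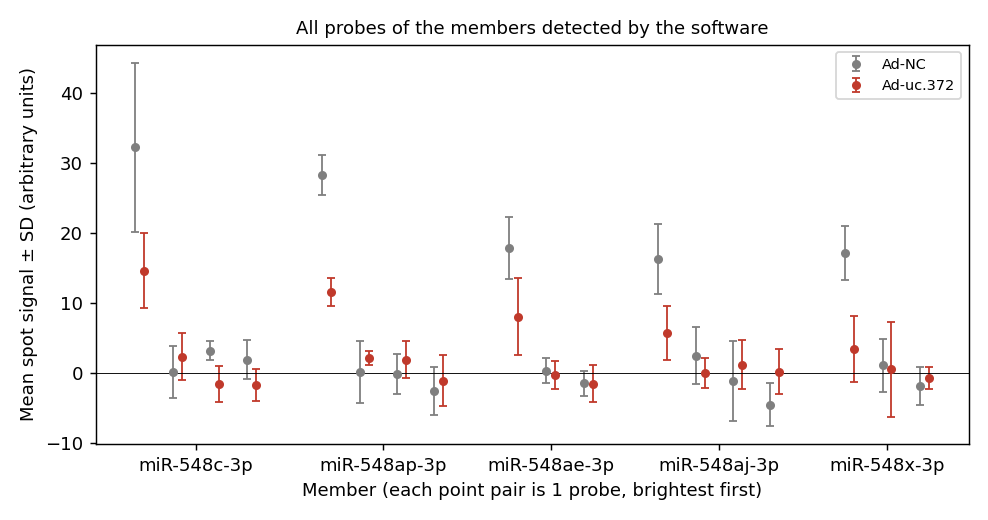
Mean signal and SD between spots (arbitrary units) for every probe of the 5 detected members, brightest probe first, with Ad-NC in grey and Ad-uc.372 in red. With Ad-NC the first probe of each member stands apart from the others, which lie between -4.56 and 3.16.

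All 5 bright probes were dimmer with Ad-uc.372. Of their members 3 were detected with Ad-NC only, and miR-548ap-3p passed the spot limit with Ad-NC alone, so their direction is partly fixed by how they came to be named, and the values are a description. The change in signal, Ad-uc.372 minus Ad-NC, was -17.6 for miR-548c-3p, -16.7 for miR-548ap-3p, -13.7 for miR-548x-3p, -10.6 for miR-548aj-3p and -9.81 for miR-548ae-3p, with combined spot SDs of 13.2, 3.49, 6.06, 6.32 and 7.02 in the same order. A range of mean signals over both arrays from 8 to 25, chosen after these values were seen, held 276 probes, and these 5 were the only member probes in it. The other 271 probes had a median change of 0.208, with 128 lower and 143 higher with Ad-uc.372, and 90% of them lay between -10.0 and 6.98. Counted from the largest fall, the 5 member probes stood at places 5, 7, 13, 17 and 19 of the 276. In a wider range from 5 to 30, 11 of 12 member probes were lower with Ad-uc.372 and their median change was -4.61, against -0.022 for the 487 others. Of those others 245 were lower and 242 higher. No test was made of this difference, since the range was set with the values in view.

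**Figure D4:**
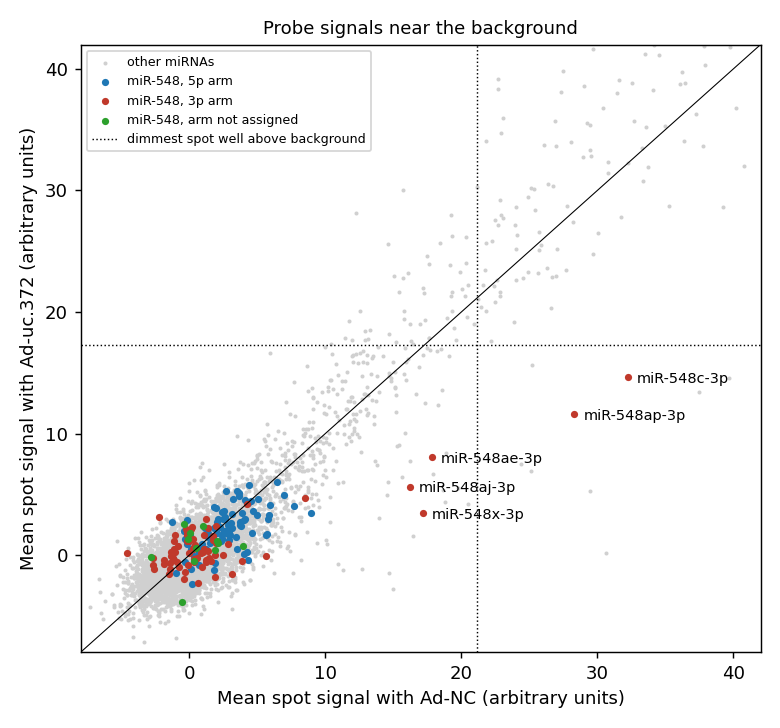
Mean signal of each probe with Ad-NC (horizontal) against Ad-uc.372 (vertical), both in arbitrary units before scaling, for probes within the plotted range, with miR-548 members coloured by arm, other miRNAs in grey, the line of equal signal, and dotted lines at the dimmest spot flagged well above background on each array. The 5 labelled member probes lie below the line, and the remaining members cluster near 0 on both axes.

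The deposited table of log2 values gives larger falls for 3 of these members, and the falls come from a fixed low value. In that table every miRNA not detected has 1 value per array, -4.71 with Ad-NC and -5.04 with Ad-uc.372, which 65 of the 70 members have with Ad-NC and 68 with Ad-uc.372. miR-548ae-3p went from -0.57 to that value, a difference of -4.47, miR-548x-3p from -0.62, a difference of -4.41, and miR-548aj-3p from -1.19, a difference of -3.85. For miR-548c-3p the table gives -0.20 and -1.67, a difference of -1.47. For miR-548ap-3p it gives -0.39 and -1.71, a difference of -1.33, and the second value corresponds to a total signal of 1 where the scanner file holds 0.818. The members not detected on either array all differ by -0.33 in that table, which is the gap between the fixed values and no measurement.

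Among miRNAs with a RefSeq sequence, some that share the seed or the bases of the detected members were not detected. The 5 probes of miR-548am-3p and miR-548j-3p, with the seed of miR-548x-3p, had means from -1.24 to 1.62 with Ad-NC and from -0.46 to 1.63 with Ad-uc.372, with 0 flagged spots. The bases CAAUUACUUU were picked as the longest stretch common to the 4 detected members with a sequence. That these 4 hold it is therefore fixed by the choice and says nothing on detection. The stretch was held by 7 of the 2248 miRNAs of the array with a RefSeq sequence (0.311%), 6 of them members. Of these 7, miR-548ac, miR-548u and miR-603 were not detected, and their 6 probes lay between -0.88 and 1.76 with Ad-NC and between -1.13 and 0.65 with Ad-uc.372.

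Of the members that were not detected, the 5 with the brightest probes all had lower means with Ad-uc.372, under the limit on both arrays. Among all 171 member probes not well above background, 94 were lower with Ad-uc.372, against 2901 of 5261 such probes of other miRNAs. The fall in these 5 is thus not shared by the dim probes of the family at large. miR-548f-3p, whose copies lie within the spans of PCDH15, ERBB4, TMEM232, CNTNAP2 and DMD, had 8.48 ± 6.18 with Ad-NC (SD, 20 spots) and 4.72 ± 3.29 with Ad-uc.372 (SD, 18 spots). miR-548am-5p had 8.91 ± 9.09 and 3.44 ± 3.24 (SD, 5 spots each). miR-548m had 7.69 ± 5.41 and 4.05 ± 5.59 (SD, 10 spots each). miR-548d-5p had 6.97 ± 4.97 and 4.92 ± 1.88 (SD, 5 spots each), and miR-548ai had 6.48 ± 4.45 and 6.02 ± 3.13 (SD, 10 spots each). The spots of all 5 members overlapped between the arrays. In each of these 5 the difference of means was smaller than the combined SD of single spots, which ran from 5.31 to 9.65 and does not show that the means were alike. Only 1 spot of miR-548f-3p and 1 of miR-548am-5p, both with Ad-NC, was flagged.

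Below the limit, probe signals are given by arm as a description. Levels of different probes cannot be compared as amounts of RNA, and none of these probes was well above background. The 171 member probes not well above background on either array had a median signal of 1.41 with Ad-NC and 1.31 with Ad-uc.372, against 0.295 and -0.011 for the 5261 such probes of other miRNAs. The 87 probes of the 5p arm had a median of 2.60 with Ad-NC and 2.20 with Ad-uc.372, and 78 and 77 of them were above 0. The 72 probes of the 3p arm had a median of 0.246 and 0.259, and 41 were above 0 on each array. The SD between spots of a single such probe had a median of 3.53 with Ad-NC and 3.01 with Ad-uc.372. Between the arms the medians differed by less, so no single probe shows the gap. This SD is not the error of a median over many probes and cannot judge the gap, which was not tested. The seed group AAAGUAA, 11 members with 26 probes, had medians of 2.75 and 2.01. The 4 probes of miR-559, with the same seed, lay between -5.67 and -1.73 with Ad-NC and between -3.37 and -1.75 with Ad-uc.372.

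**Figure D5:**
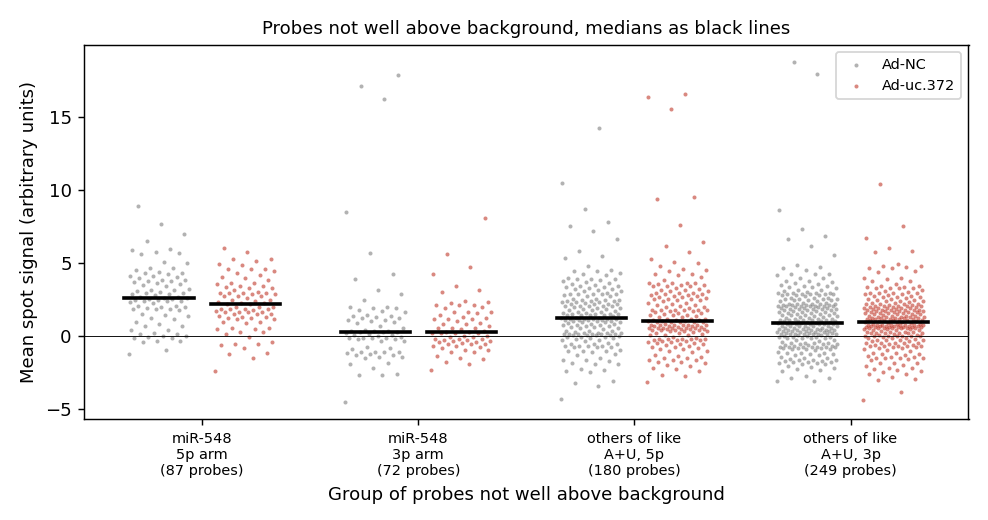
Mean signal (arbitrary units) of each probe not well above background on either array, by arm, for miR-548 members and for other miRNAs of like A+U content with a named arm, with Ad-NC in grey, Ad-uc.372 in red and medians as black lines. The median of the miR-548 5p probes is the highest, at 2.60 and 2.20, and 3 of the detected 3p members stand out with Ad-NC.

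Across the 65 members that were not detected, the mean signal over a member's dim probes on one array went with that on the other, with a Pearson's r of 0.78 and a Spearman's rho of 0.75 (n = 65 members, a description with no test, since both arrays share slide, scan and probe sequences). Within the 36 members of the 5p arm the values were 0.68 and 0.66, and within the 24 of the 3p arm 0.73 and 0.32. The order of the dim members was thus partly kept from array to array, and its source was not tested.

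The members were rich in A and U. The 49 with a sequence had a median A+U content of 65.2% (lowest 45.5%, highest 84.2%) and a median length of 22 bases, against 47.8% and 22 bases for 2199 other miRNAs. The 4 detected members with a sequence were at 71.4% to 81.0%, and of the 12 members at 70% or more these were the 4 that the software called with Ad-NC. Of the 58 other miRNAs at 70% or more, 2 were called with Ad-NC (3.45%) and 1 with Ad-uc.372. The 278 other miRNAs with at least 63.6% A+U, the lower quartile of the family, were well above background in 20 cases with Ad-NC (7.19%) and 21 with Ad-uc.372 (7.55%), so their share lay between that of the members and that of all other miRNAs on both arrays. Their 654 dim probes had medians of 0.940 and 0.793, and within this group the 5p arm was at 1.20 and 0.984 and the 3p arm at 0.888 and 0.971. A+U content and mean signal of the 45 members not detected and with a sequence had a Pearson's r of 0.42 with Ad-NC and 0.54 with Ad-uc.372 and a Spearman's rho of 0.25 and 0.44, again as a description over probes of like composition.

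Related hairpins of other names were as dark as most members. miR-559, miR-4445-3p, miR-7161-5p and miR-8054 share a member's seed, and 0 of these 4 were well above background on either array, with probe means between -5.67 and 1.15 with Ad-NC and between -5.04 and 0.627 with Ad-uc.372. miR-570-3p, both arms of miR-579 and miR-603 come from hairpins of the same transposable element, and 0 of these 4 were well above background, with probe means between -2.11 and 5.22 with Ad-NC and between -1.41 and 4.30 with Ad-uc.372.

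Of 5 miRNAs listed for liver or HepG2, 3 were well above background on both arrays, miR-192-5p, miR-194-5p and miR-21-5p. This count describes the cells and does not identify them. miR-122-5p, the most abundant miRNA of hepatocytes, was not, with a brightest probe at 5.09 with Ad-NC and 5.08 with Ad-uc.372, and neither was miR-483-3p. Of 16 markers of blood, endothelium, smooth muscle, striated muscle, neurons and pluripotent cells, 0 were well above background on either array.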

How the data were processed

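Total RNA of 2 HepG2 cultures was Cy3-labelled and hybridised to the Agilent human miRNA array V21.0. The authors read the images with Agilent Feature Extraction, version 10.10 per the submitters' processing notes, whereas the file headers give 11.5.1.1. The deposited spot intensity is background-subtracted, with no normalization across arrays, and hg19 is the build of the grid. A second deposited table holds the authors' log2 values, normalized with GeneSpring GX per the study's methods. They equal the log2 total signal minus a constant per array (1.39 and 1.71) within 0.001 for 2546 and 2542 of 2549 miRNAs.

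Spots of controls and spots marked as outliers were dropped. Spots under the array's limit were raised to it, log2 intensities were averaged per probe, and each array's 75th percentile, over the probes that were well above background on both, was subtracted (signals of 304.6 and 356.5). The difference of a miRNA averages its probes that both arrays measured. The fold limit was 1.5. Members named were those well above background or detected by the software on an array, and the 5 with the brightest probes of the rest. Arms of names without a suffix came from the position in the RefSeq hairpin. Members, lists and alternatives were chosen with earlier results of these data known. Sequences and coordinates are RefSeq's on GRCh38.p14, not the build of the grid, and gene spans do not say whether a site is exonic or intronic. The steps that give a difference were run on simulated arrays, with the same limit on both and no outlier spots. Unlike limits and the bound were not covered. Python 3.11.15, numpy 2.4.6, pandas 2.3.3, matplotlib 3.10.9 and, for normexp, R 4.3.3 with limma 3.58.1 were used.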

Additional observations from a re-analysis of the deposited data

How the results depend on the processing

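The direction of miR-548c-3p, lower with Ad-uc.372, was the same under all 13 alternatives that gave it a value, from -1.47 to -0.45. As the only member measured on both arrays it also set the median difference. That median was -0.45 with normexp and an offset of 50, which took it under 1.5-fold so that 0 members passed, -0.62 when the 75th percentile was that of all probes, -0.66 with all 4 probes averaged, and -0.62 when any flagged spot sufficed, where miR-548ae-3p joined it. With the software's detection flag, or with the authors' deposited values, 5 members were detected with Ad-NC and 2 with Ad-uc.372, 2 were on both arrays and 2 were past 1.5-fold. With any flagged spot the members were 7 with Ad-NC, 3 with Ad-uc.372 and 2 on both. With every spot required they were 1, 0 and 0, with 0 past 1.5-fold, and with 1 common detection limit 2, 0 and 0, with 0 past 1.5-fold, so neither setting gave a difference. In each of these settings more members were counted with Ad-NC than with Ad-uc.372. Where a setting changes the detection rule or the number of probes, its construction sets the change, and for the others the cause was not tested. The bound of miR-548ap-3p lay between 1.32 and 1.85 and was under 1.5 with normexp, the common limit and the 75th percentile over all probes. With outliers kept or with medians of spots, the median of the dim member probes was 1.40 to 1.52 with Ad-NC and 1.08 to 1.32 with Ad-uc.372. That of the dim probes of other miRNAs was 0.17 to 0.38 and -0.092 to 0.069. No paired analysis was possible because there is a single array of each condition. Signal over background limits every value: the brightest member probe had a signal of 32.2 against a limit of 21.1 with Ad-NC, and of 14.6 against 17.3 with Ad-uc.372.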
